A study of Arabidopsis thaliana with 4 samples.

Results

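The mRNA found on large polysomes of hypoxic seedlings was compared with that of non-stressed seedlings, gene by gene. The comparison used 2 of the 4 samples of the series, the large-polysome RNA of hypoxia-stressed seedlings and the large-polysome RNA of non-stressed seedlings, each measured on 1 Affymetrix ATH1 array. Both came from 7-d-old wild-type seedlings of the Ler strain of Arabidopsis thaliana kept under low light, labelled as 45 uM m-2 s-2, for 12 h, with hypoxia as the difference between them. The other 2 arrays, total RNA of seedlings after 12 h of hypoxia and total RNA of non-stressed seedlings, are quoted where they stand beside a value; the label of that non-stressed total RNA gives no treatment time. Whole seedlings were used, so fewer cells of a type and less mRNA per cell cannot be told apart.

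A polysome is an mRNA carrying several ribosomes at once, and large polysomes are the part of the mRNA with many ribosomes loaded. Plants short of oxygen lose most mitochondrial ATP production, shift to fermentation, restrict protein synthesis, and keep a small set of stress mRNAs on ribosomes while many mRNAs for growth leave them. Signal on large polysomes reflects both how much of an mRNA a seedling holds and how much of it is loaded with ribosomes.

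A gene was measured when at least 1 of the 2 large-polysome intensities was above 140. Each ratio is hypoxia over non-stressed, on the log2 scale or as a fold, and intensities under 140 were set to 140, so that a gene under it on 1 array has a bound, written as "at least". With 1 array a side there is no spread between samples, no test and no p-value, and the number of arrays limits the precision. Fold sizes are therefore a description of these 2 arrays. Among 32 genes read by 2 probe sets each, the log2 ratios of the 2 probe sets differed by a median of 0.37 and by 1.29 at the 95th percentile, so a ratio near 2-fold, a log2 of 1, lies within the disagreement of probe sets on the same arrays.

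Of 13350 genes with a named probe set, 7296 were measured on large polysomes, 6125 of them on both arrays, 408 above 140 in hypoxia only and 763 above 140 in non-stressed seedlings only. Of the 7296 genes, 586 were at least 2-fold higher in hypoxia, 8.03%, and 739 were at least 2-fold lower, 10.1%. Over all 13775 measured probe sets, with or without a gene name, the shares were 8.1% higher and 11.3% lower. Scaling the arrays on 18 spiked control probe sets moved the median of all genes by -0.31, and the split between higher and lower then became 315 and 1457, so that 17.8% of the 2-fold genes were higher, against 44.2% with the deposited scaling. Each direction below is therefore one against the rest of its array, and sign changes of a list's median under another scaling are named beside it. The higher side reached further. At 4-fold there were 111 higher and 70 lower genes, at 8-fold 32 higher and 4 lower, and at 16-fold 7 higher and 1 lower, while at 3-fold the counts were 208 and 207. The median ratio of all measured genes was -0.07, with the 5th percentile at -1.36 and the 95th at 1.27.

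The hypoxia array had 54.5% of its probe sets above 140 and the non-stressed array 57.2%. The signal of the 3' over the 5' end of the actin control was 2.15 in hypoxia and 2.45 in non-stressed large-polysome RNA, against 1.22 and 1.39 in total RNA, and that of ubiquitin was 1.24 in hypoxia and 2.02 in non-stressed large-polysome RNA. The third such control, GAPDH, went the other way, at 1.29 in hypoxia and 1.11 in non-stressed large-polysome RNA. The 25S ribosomal RNA control read 254.2 in hypoxia and 64.4 in non-stressed large-polysome RNA. The part of these differences in the results was not tested.

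**Figure D1:**
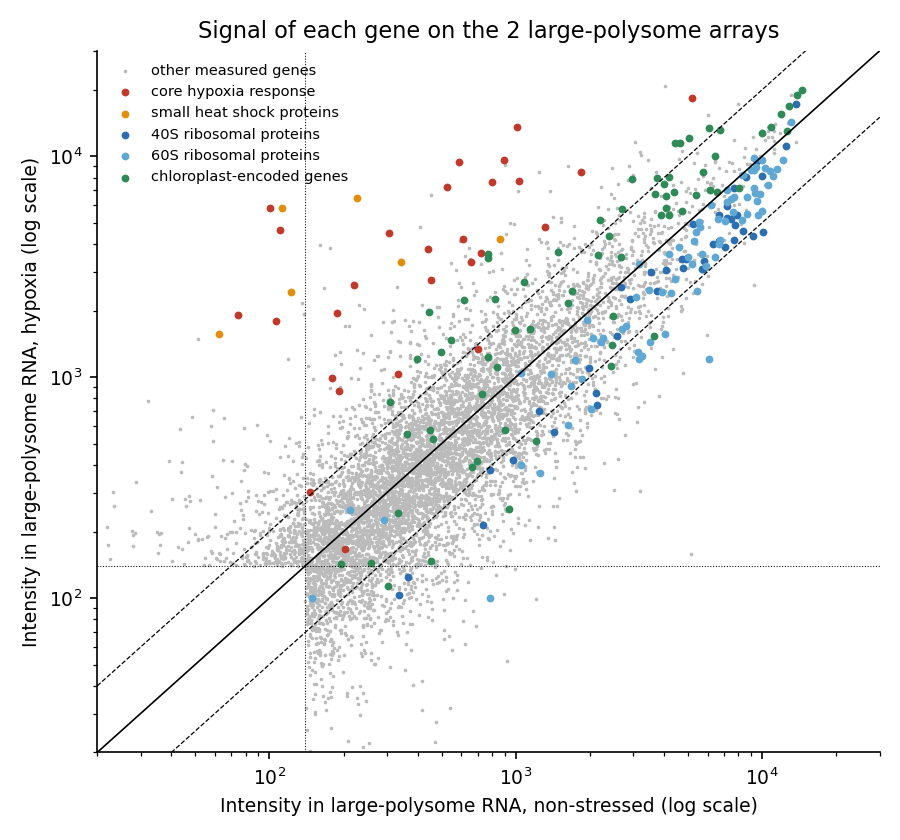
Intensity of each measured gene on the hypoxia large-polysome array (vertical, log scale) against the non-stressed large-polysome array (horizontal, log scale), with 5 gene lists in colour. The solid line marks equal signal, the dashed lines 2-fold and the dotted lines the floor of 140. The core hypoxia and small heat shock protein genes lie above the upper dashed line with 2 exceptions, and the ribosomal proteins lie along and below the solid line.

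The highest ratio among genes above 140 on both arrays was that of AT1G54050, a gene on the small heat shock protein list, with an intensity of 6439 in hypoxia against 226.5 in non-stressed seedlings, 28.4-fold. GSTU25 (AT1G17180), a tau-class glutathione S-transferase that couples glutathione to reactive compounds, had 3971 in hypoxia against 160.7 in non-stressed seedlings, 24.7-fold. AT5G10695, on no list, had 3824 in hypoxia against 176.6, 21.7-fold. In all 3 the hypoxia signal was far above a non-stressed signal close to the floor. On the log2 scale the 3 genes stood at 4.83, 4.63 and 4.44 on large polysomes beside 3.97, 4.11 and 2.96 in total RNA.

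Below these 3 came AT4G10270, AT1G63540, AT1G19020, PDC2, AT2G17850, AT1G33055, AT3G23170, AT5G40690 and AT5G66985, from 15.9-fold to 10.6-fold. Of these, AT4G10270, PDC2, AT2G17850, AT1G33055, AT3G23170 and AT5G66985 are on the core hypoxia list. PDC2 (AT5G54960) encodes pyruvate decarboxylase, the enzyme that commits pyruvate to ethanol fermentation, and read 4467 in hypoxia against 306.4 in non-stressed seedlings. AT1G33055 read 13578 in hypoxia against 1014. The other 8 read between 2539 and 9578 in hypoxia, against 166.0 to 899.4 in non-stressed seedlings.

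For 6 genes with the highest bounds, the non-stressed signal was under the floor. AT1G53540, on the small heat shock protein list, read 5852 in hypoxia and was at least 41.8-fold higher, and AT5G10040, on the core hypoxia list, read 5797 and was at least 41.4-fold higher. CML38 (AT1G76650), a calmodulin-like calcium sensor and also a core hypoxia gene, read 4649 in hypoxia against 110.1 in non-stressed seedlings, at least 33.2-fold. ATHSP22.0, a small heat shock protein, was at least 17.4-fold higher, AT2G32020 at least 15.5-fold and AT1G59660 at least 13.7-fold.

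**Figure D2:**
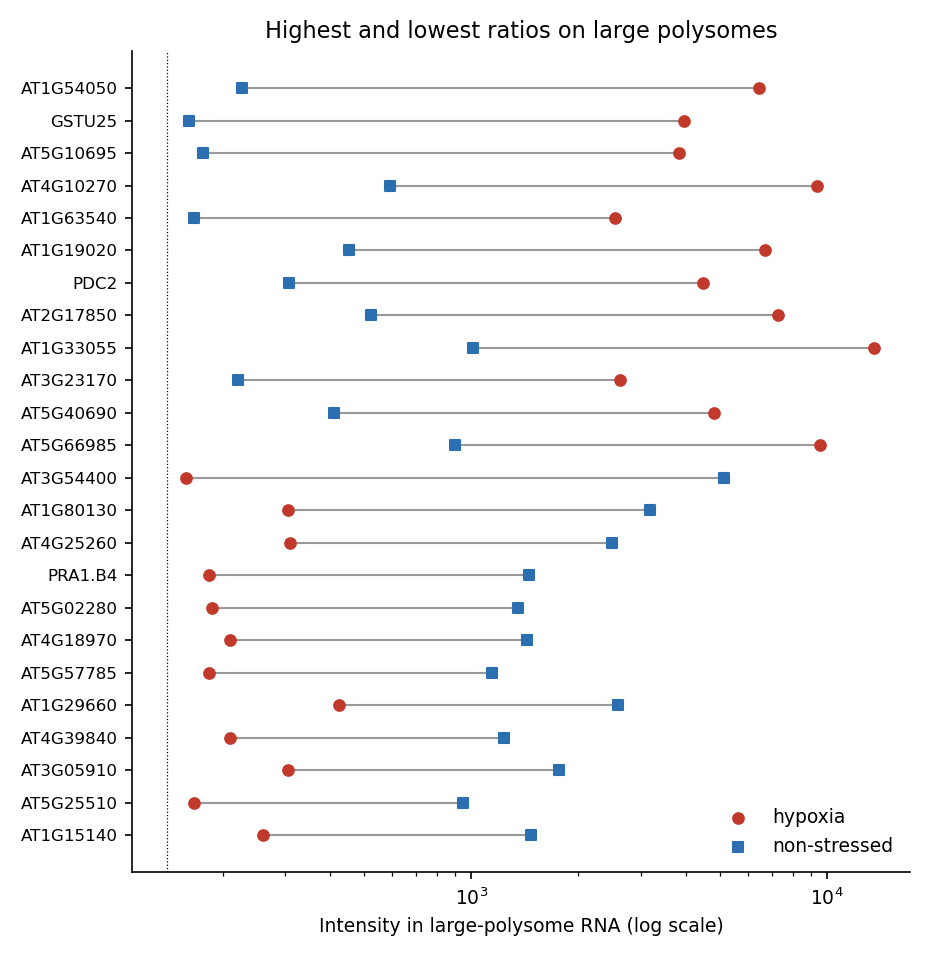
Intensity in large-polysome RNA (log scale) of hypoxic (red circles) and non-stressed seedlings (blue squares) for the 12 highest and the 12 lowest ratios among genes above 140 on both arrays, 1 array a side; the dotted line is 140. The upper genes sit between 2539 and 13578 in hypoxia, and the lower genes between 158 and 424 in hypoxia.

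At the other end AT3G54400 stood alone, with an intensity of 158 in hypoxia against 5120 in non-stressed seedlings, 32.4-fold lower. It was under the floor in total RNA of hypoxic seedlings, at 120.6, against 3689 in total RNA of non-stressed seedlings. AT1G80130 read 305 in hypoxia against 3186, 10.4-fold lower, and AT4G25260 read 309.8 against 2492, 8.04-fold lower. AT1G80130 was further down on large polysomes than in total RNA, with log2 ratios of -3.39 beside -1.99. PRA1.B4, of the PRA1 family of membrane proteins that bind Rab GTPases, read 183.7 in hypoxia against 1449, 7.89-fold lower.

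The remaining 8 of the 12 lowest, AT5G02280, AT4G18970, AT5G57785, AT1G29660, AT4G39840, AT3G05910, AT5G25510 and AT1G15140, were 7.24-fold to 5.67-fold lower. Among genes under the floor in hypoxia, AT5G62280 was at least 8.64-fold lower, at 98.5 in hypoxia against 1209. WAG2 (AT3G14370), a protein kinase that acts in auxin transport, was at least 7.07-fold lower, at 135.2 in hypoxia against 989.8. AT4G35720, AT3G28040, AT5G57760 and AT5G66470 were at least 6.60-, 6.53-, 6.42- and 5.91-fold lower. All 6 of these were under the floor in hypoxia, where a larger fold could not be read.

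Most leading genes carry only a locus name in the annotation. Of 1080 measured genes with a symbol, the nuclear ones with the highest ratios, after those already named, were GSTU22, PME61, UGT73B4, ASPGB1, ZCF37, TIL, NANA, SBT3.5, Hop3, YLS5 and STZ. GSTU22, another glutathione S-transferase, read 2031 in hypoxia against 241, 8.43-fold. PME61, a pectin methylesterase that removes methyl groups from wall pectin, read 1545 against 259.1, 5.96-fold. ASPGB1, an asparaginase that releases ammonium from asparagine, read 1288 against 238.7, 5.39-fold.

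TIL, a temperature-induced lipocalin that protects membranes from oxidation, read 20704 in hypoxia against 4030 in non-stressed seedlings, 5.14-fold. NANA, an aspartic protease, was 5.12-fold higher and SBT3.5, a subtilisin-like protease, 4.75-fold higher. STZ, a zinc finger repressor of stress responses, read 1307 in hypoxia against 307.8, 4.25-fold. NANA, TIL and STZ had lower ratios on large polysomes than in total RNA, 2.36, 2.36 and 2.09 beside 2.71, 2.52 and 2.54 on the log2 scale, while PME61 and ASPGB1 had higher ones on large polysomes, 2.58 and 2.43 beside 1.63 and 1.32. None of these differences between fractions was tested.

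The nuclear symbol-bearing genes with the lowest ratios, after PRA1.B4 and WAG2, were XTH16, ARA12, XTH33, AOP3, IAA29, ATPMEPCRB, CRT1b, SKU5, AOP1, PAM68, CSLC04, BRH1 and PDF2.5. ARA12, a subtilisin-like protease of the cell wall, read 331.4 in hypoxia against 1717, 5.18-fold lower. SKU5, a wall-linked glycoprotein that steers root growth, read 1042 against 4785, 4.59-fold lower. IAA29, a repressor of auxin responses, read 181.3 against 887.9, 4.90-fold lower, and BRH1, a RING-type protein responsive to brassinosteroids, read 689.5 against 2518, 3.65-fold lower. PDF2.5, a defensin-like peptide, was 3.63-fold lower on large polysomes, with 145.1 against 526.3, and read 106.8 in hypoxia against 162.1 in total RNA, a bound of -0.21.

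Of the 27 measured core hypoxia genes, a list of loci that rise under low oxygen in many Arabidopsis tissues, 25 were at least 2-fold higher, none was 2-fold lower and the median ratio was 2.90, against -0.07 over all genes. The list was written by locus from general knowledge of such responses and not checked against an annotation. The same holds for the small heat shock and ribosomal protein lists. As the core hypoxia list was chosen with earlier results of these data known, its direction is neither a finding nor an independent check of the label. Here and below, counts of a list stand beside the shares of all measured genes. Of these, 8.03% were at least 2-fold higher and 10.1% lower. In a list of about 10 genes, 1 gene past 2-fold is near that background. Genes above 140 on both arrays were also split into 4 classes of mean signal. The share higher rose from 2.15% in the weakest class to 13.9% in the strongest. The share lower was 6.14% in the weakest, 8.95% in the strongest, and 11.5% and 11.7% between. The lists were chosen with earlier results of these data known, so these shares are no test of a list. In total RNA 24 of 26 core hypoxia genes were at least 2-fold higher, where 5.4% of all measured genes were, and the median was 2.44. The 2 genes under 2-fold on large polysomes were AT5G47060, at 0.92, and AT1G72940, at -0.28. AT3G10020 read 7612 in hypoxia against 799.6 on large polysomes and 2411 against 1147 in total RNA, log2 ratios of 3.25 and 1.07. AT1G19530 stood at 2.90 on large polysomes beside 1.59 in total RNA, and AT3G23170 at 3.57 beside 2.40. In the other direction AT4G10270 stood at 3.99 on large polysomes beside 4.51 in total RNA.

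Small heat shock proteins hold unfolding proteins in solution, and each of the 6 measured genes passed 2-fold upward; their median ratio was 3.80. Besides the 3 already given, AT5G37670 was at least 11.2-fold higher, AT2G29500 read 3316 in hypoxia against 342.9 and was 9.67-fold higher, and AT5G51440 read 4232 against 863.4 and was 4.90-fold higher. The other chaperones and co-chaperones divided. Of 15 measured, 5 were at least 2-fold higher and 1 lower, and the median was 0.07, or -0.29 on the spiked-control scaling.

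Hop3, which passes client proteins between HSP70 and HSP90, read 1100 in hypoxia against 232.7, 4.73-fold, while its relatives Hop2 and Hop1 stood at 0.63 and -0.15 on the log2 scale. HSA32, a heat-stress protein, was 3.79-fold higher, and Fes1A, a cytosolic HSP70 partner, was 3.60-fold higher at 2094 against 581.4. Fes1C and Fes1B stood at 0.62 and at most -0.65. SGT1A, a co-chaperone of HSP90, was 3.27-fold higher at 2050 against 626.5. Of the 3 chloroplast chaperonin subunits, Cpn60beta2 read 886.8 in hypoxia against 2544, a log2 ratio of -1.52, Cpn60beta3 stood at -0.99 and Cpn60beta4 at -0.16.

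In the endoplasmic reticulum, where secreted proteins fold, 1 of 12 measured genes of folding and quality control was at least 2-fold higher and 2 were lower, with a median of -0.34. BZIP60, a transcription factor of the unfolded protein response, was the higher gene, at 2210 in hypoxia against 1104, just past 2-fold. CRT1b, a calreticulin that folds glycoproteins, read 822.9 against 3815, 4.64-fold lower, and its ratio of -2.21 on large polysomes stood beside -1.50 in total RNA. ATERDJ3B, a partner of the lumenal HSP70, read 548.7 against 1856, a log2 ratio of -1.76. The Derlin-type genes DER2.1, DER1 and DER2.2, which act in the export of misfolded proteins, stood at 0.67, 0.45 and 0.28.

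Of 10 measured glutathione S-transferase genes, 2 were at least 2-fold higher and 3 were at least 2-fold lower, the lower ones 30.0% beside 10.1% of all genes. The 2 higher ones were GSTU25 and GSTU22. The 3 lower ones were GSTU28, at 167.1 in hypoxia against 428.5, GSTU27, at 571.3 against 1282, and GSTU26, at 259.0 against 524.8, with log2 ratios of -1.36, -1.17 and -1.02. GSTU25 and GSTU26 are direct neighbours on chromosome 1 and stood at 4.63 and -1.02. The median of the family was 0.12, or -0.03 on the spiked-control scaling.

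Among 26 measured UDP-glycosyltransferases, which attach sugars to small molecules, 3 were at least 2-fold higher, 11.5%, 2 were lower, 7.69%, and the median was -0.17, shares near the 8.03% and 10.1% of all genes. UGT73B4 and UGT73B5, neighbours on chromosome 2, read 776.1 and 512.0 in hypoxia against 32.1 and 100.2, at least 5.54- and 3.66-fold higher. UGT87A2 read 2496 against 952.4, 2.62-fold. UGT71C1 read 109.8 in hypoxia against 334.9 and was lower by at least 1.26 on the log2 scale. The neighbours BGLU45 and BGLU46, beta-glucosidases, stood at 1.29 and 1.08 in a family of 12 in which 2 were at least 2-fold higher and 1, BGLU44 at -1.15, was lower, with a median of 0.23 that was -0.13 on the spiked-control scaling.

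**Figure D3:**
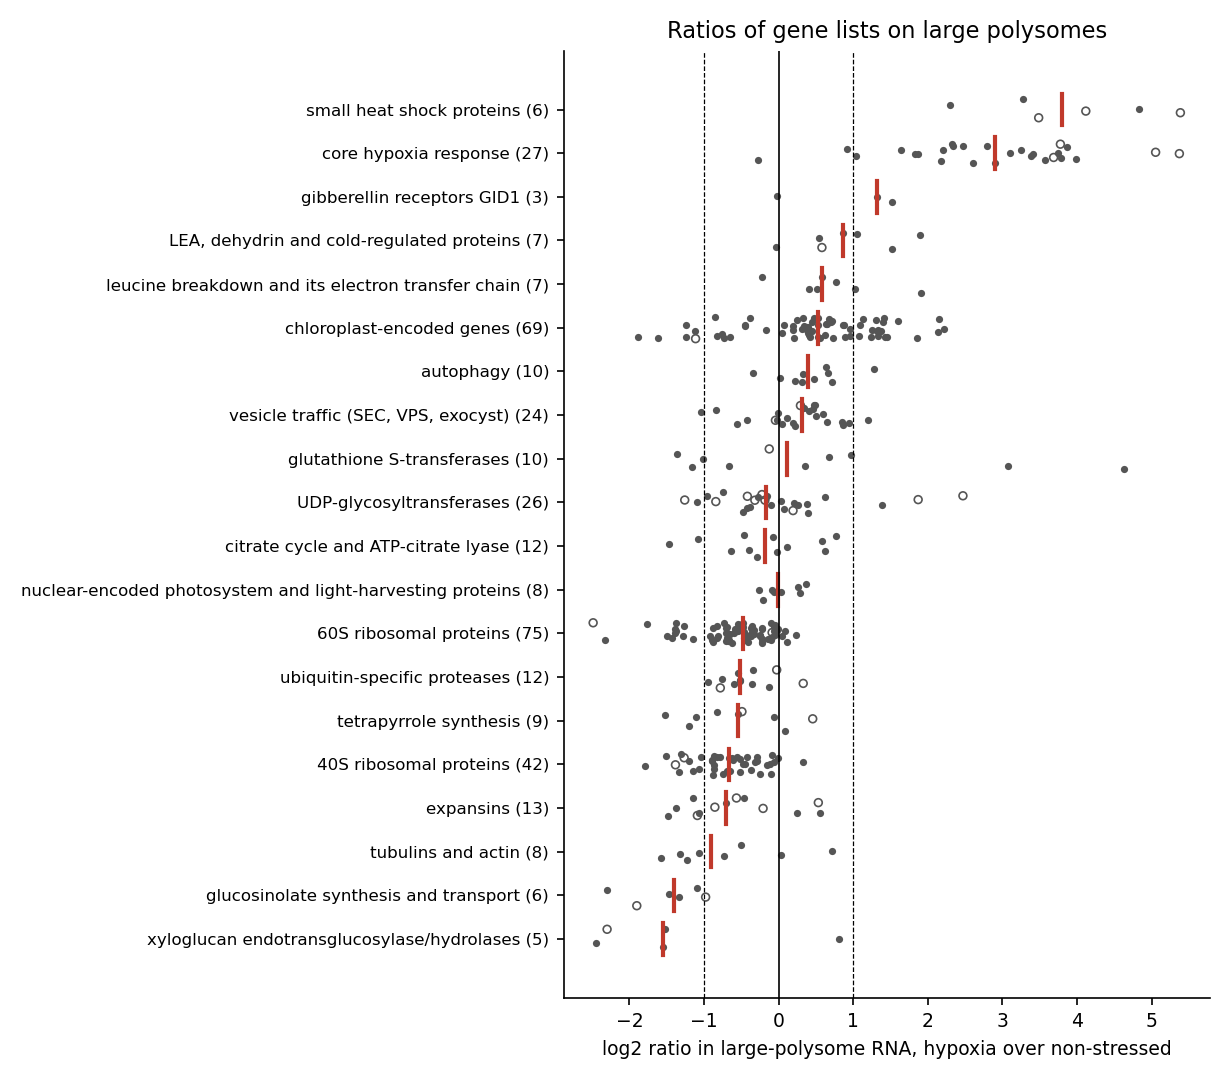
log2 ratio of hypoxia over non-stressed in large-polysome RNA for the measured genes of 20 lists, with the number of genes in brackets. Filled points are genes above 140 on both arrays, open points are bounds, red bars are list medians and dashed lines mark 2-fold; on the spiked-control scaling the medians of vesicle traffic and glutathione S-transferases fall below 0, and on median centring that of nuclear-encoded photosystem proteins rises above 0.

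The gibberellin receptors GID1A and GID1B, which release growth from repression when they bind the hormone, read 1830 and 406.2 in hypoxia against 638.2 and 163.0, 2.87- and 2.49-fold higher, while GID1C stood at -0.02. Of 7 genes for late embryogenesis abundant, dehydrin and cold-regulated proteins, which protect cells that lose water, 3 were at least 2-fold higher, 42.9% beside 8.03% of all genes, and none lower, with a median of 0.86. LTI30 read 3012 in hypoxia against 808.4, LEA4-5 610.9 against 213.2 and LEA18 1039 against 501.8. LEA4-5 and LEA18 had log2 ratios of 1.52 and 1.05 on large polysomes beside -0.15 and -0.05 in total RNA, and COR47, a dehydrin, had 0.55 beside -0.47. In total RNA LEA4-5 read 147.1 in hypoxia against 163.4, both close to the floor, and LEA18 read 306.1 against 317.8. DI21 went the other way, at -0.03 on large polysomes beside 0.76 in total RNA. The median of the list in total RNA was 0.46.

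The leucine breakdown chain and the electron transfer flavoproteins that it feeds had 2 of 7 genes at least 2-fold higher and a median of 0.58. MCCA, a subunit of methylcrotonyl-CoA carboxylase, read 5310 in hypoxia against 1420, 3.74-fold, its partner MCCB 6606 against 3868, 1.71-fold, and IVD, isovaleryl-CoA dehydrogenase, 2482 against 1220, 2.03-fold. MCCA stood at 1.90 on large polysomes beside 0.67 in total RNA. D2HGDH, a hydroxyglutarate dehydrogenase, was at -0.22. In autophagy, the delivery of cell contents to the vacuole, 1 of 10 genes was at least 2-fold higher, 10.0%, near the 8.03% of all genes, and 9 were above 0, with a median of 0.40 that was 0.04 on the spiked-control scaling. The 2-fold gene was ATG8E, which coats the forming vesicle, at 3914 against 1613, 2.43-fold.

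Among the glutaredoxins, GRX480 read 415.9 in hypoxia against 124.1, at least 2.97-fold higher, and GRXC1 912.0 against 408.8, 2.23-fold, with GRXC2 at 0.36 and ROXY2 at -0.03. Thioredoxins, their relatives in the reduction of disulfides, had 1 of 8 at least 2-fold higher and 2 lower, and a median of -0.42, with THX at 1.06, ty2 at -1.19 and TO1 at -1.10. In ascorbate metabolism, SAPX, a peroxidase of the chloroplast stroma, read 945.1 in hypoxia against 3081, a log2 ratio of -1.71, while TAPX, its thylakoid counterpart, stood at 0.46. ALDH7B4, an aldehyde dehydrogenase of stress responses, read 9581 against 3426, 2.80-fold, and was the one 2-fold member of its family of 8.

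Vesicle traffic had 24 measured genes, of which 1 was at least 2-fold higher and 1 lower, with a median of 0.32 that was -0.02 on the spiked-control scaling. VPS2.1, SNF7.2 and VPS60.1, of the ESCRT-III machinery that sorts membrane proteins for breakdown, stood at 1.20, 0.94 and 0.86, and SEC6, of the exocyst that tethers secretory vesicles, at -1.03. PUB22, a ubiquitin ligase, read 531.6 in hypoxia against 232.0, 2.29-fold, and UBC18, a ubiquitin-conjugating enzyme, 1004 against 495.4, 2.03-fold. None of the 12 measured ubiquitin-specific proteases, which remove ubiquitin, passed 2-fold, and 11 were below 0, with a median of -0.51 and UBP23 lowest at -0.94. In mRNA splicing ATU2AF65A, which recognises the end of an intron, read 2413 against 920.5, 2.62-fold, and PRP39 1944 against 893.7, 2.17-fold, within a list of 13 with a median of 0.00 on the deposited scaling, 0.04 on quantile normalization, 0.05 on median centring and -0.35 on the spiked-control scaling.

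Lists of wall proteins, chosen like the others with earlier results of these data known, differed. Of 5 measured xyloglucan endotransglucosylase/hydrolases, which cut and rejoin wall xyloglucan, 4 were at least 2-fold lower, 80.0% beside 10.1% of all genes, with a median of -1.55. In total RNA, where 7 were measured, the median was -1.20. XTH16 read 259.8 in hypoxia against 1411, 5.43-fold lower, XTH33 was at least 4.92-fold lower at 74.4 against 688.9, XTH19 read 702.7 against 2060 and XTH32 294.8 against 845.7. XTH18 stood apart at 4433 against 2520, a log2 ratio of 0.81, and was at -0.21 in total RNA.

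Of 13 measured expansins, proteins that loosen walls in acid, none was at least 2-fold higher and 5 were lower, 38.5% beside 10.1% of all genes, with a median of -0.71. EXPA9 read 140.6 in hypoxia against 391.6, EXPA15 277.4 against 720.6 and EXPA18 243.6 against 540.0, log2 ratios of -1.48, -1.38 and -1.15. EXPA9 and EXPA16 stood at -1.48 and at most -1.09 on large polysomes beside 0.32 and 0.01 in total RNA. Others went the other way, as EXLA1 and EXPA8, at -0.46 and -0.71 on large polysomes beside -1.35 and -1.04 in total RNA. The median of the expansins in total RNA was -0.74. Of the 4 measured pectin methylesterases 3 were above 0, PME61 as above, ATPMEPCRD at 0.88 and PMEPCRF at 0.64, and the median was 0.76. ATPMEPCRB was lower, at 87.6 in hypoxia against 670.7, at least 4.79-fold. CSLC04 and CSLC5, which synthesise the xyloglucan backbone, read 473.3 and 193.1 in hypoxia against 1740 and 578.8, and were the 2 genes at least 2-fold lower among 10 of wall polysaccharide synthesis, a list with a median of -0.20.

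EXPA7 and EXPA18 are also root hair markers. Root markers with a named probe set were PYK10, EXPA7 and EXPA18, 3 of 9 written down, with 0 of 3 at least 2-fold higher and 1 lower. PYK10, a root beta-glucosidase, read 14151 in hypoxia against 12721, a log2 ratio of 0.15, and EXPA7 was under the floor in hypoxia, at 105.3 against 161.7. The 3 intensities, most of them PYK10, summed to 14500.0 in hypoxia against 13422.7 in non-stressed seedlings on large polysomes, and to 14512.8 against 20421.4 in total RNA, where 2 of 3 were at least 2-fold lower with a median of -1.28. The part of root tissue in the wall results was not tested. Of 7 guard cell and phloem markers written down, 2 were measured, AT1G22690 at 1277 in hypoxia against 923.6 and FMA at 135.0 against 186.8, and their sum was 1412.4 against 1110.4.

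The cytoskeleton list had a median of -0.90 on large polysomes and -1.03 in total RNA. On large polysomes 4 of its 8 genes were at least 2-fold lower, 50.0% beside 10.1% of all genes. These were the tubulins TUB1, at 675.4 in hypoxia against 2014, TUB9, at 1605 against 3998, TUB7, at 552.7 against 1295, and TUA6, at 2880 against 6019, with log2 ratios from -1.58 to -1.06, while TUA1 stood at 0.72 and TUB6 at 0.03. Of 6 measured RALF-like peptides, which regulate growth through wall-bound receptors, 2 were at least 2-fold lower, RALFL24 and RALFL32, and none was above 0. Of 6 measured glycoside hydrolases of family 9, which trim glucans of the wall, GH9C2 and GH9B7 were lower, at -1.65 and -1.41.

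Auxin-linked genes had 3 of 9 at least 2-fold lower and a median of -0.80. Besides WAG2 and IAA29 the third was HAT2, a homeodomain factor, at 471.4 in hypoxia against 1320. The auxin-conjugating enzymes WES1, GH3.3 and GH3.17 stood at 0.03, -0.19 and 0.20. All 6 measured genes of glucosinolate synthesis and transport, which make the sulfur-rich defence compounds of the cabbage family, were below 0, 5 of them at least 2-fold lower, 83.3% beside 10.1% of all genes, with a median of -1.40. AOP3, which modifies the side chain, read 387.6 in hypoxia against 1904, 4.91-fold lower. Its chromosome 4 neighbour AOP1 was at least 3.73-fold lower at 125.0 against 522.8. BCAT4, which starts chain elongation, read 806.7 against 2225, and the transporter GTR2 232.3 against 587.3. The list had a median of -1.41 in total RNA with 6 of 6 lower, where 8.74% of all measured genes were.

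Ribosomal protein mRNAs, which encode the translation machinery itself, were nearly all on the lower side, most of them by less than 2-fold. Of 117 measured genes of the cytosolic ribosome, 112 were below 0 and 22 were at least 2-fold lower, 18.8%, beside 10.1% of all genes, and none was 2-fold higher. The median was -0.54 on large polysomes and -0.09 in total RNA. The 42 genes of the 40S subunit had a median of -0.66 with 10 lower, and the 75 of the 60S subunit -0.48 with 12 lower; on quantile normalization the medians were -0.77 and -0.60.

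AT3G57490 had the lowest ratio of the 40S genes, at 213.1 in hypoxia against 734.0, a log2 ratio of -1.78 beside -1.06 in total RNA. AT2G32220, of the 60S subunit, was under the floor in hypoxia at 99.5 against 784.3, lower by at least 2.49 on the log2 scale, and AT3G44590 read 1212 against 6092, at -2.33 beside -0.97 in total RNA. At the upper end AT5G20290, of the 40S subunit, read 17265 in hypoxia against 13748, at 0.33, and AT3G60245, of the 60S subunit, 14251 against 13131, at 0.12.

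Subunits of nuclear RNA polymerases had 3 of 11 at least 2-fold lower and a median of -0.57. NRPB7 read 356.6 in hypoxia against 950.0, a log2 ratio of -1.41, NRPB9B stood at -1.07 and NRPC2 was under the floor in hypoxia at 138.2 against 280.6. Of 4 measured histone H2B genes, HTB1 was lower, at 336.7 against 1103, -1.71, and HTB2, HTB4 and HTB11 stood between -0.05 and -0.31. In the citrate cycle list 2 of 12 genes were at least 2-fold lower, the succinate dehydrogenase subunit SDH2-2, at 684.9 in hypoxia against 1905, and MDH (AT3G47520), known as a malate dehydrogenase of plastids rather than of the cycle itself, at 1525 against 3228. SDH2-1 stood at -0.64, and ACLA-3, of ATP-citrate lyase, at 0.77. None of 7 measured genes for respiratory NADH dehydrogenases and cytochrome c passed 2-fold.

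None of 8 measured nuclear genes for subunits of the photosystems and their antennae passed 2-fold, their ratios ran from -0.26 for LHCB4.3 to 0.37 for PSAE-1, and their median was -0.01, or 0.04 on median centring. LHCB4.1, an antenna protein, read 12946 in hypoxia against 10572. PAM68, a nuclear-encoded factor that assembles photosystem II and is not on that list, was at least 3.71-fold lower, at 119.5 in hypoxia against 519.1. RCA, SBPASE and PRK, of carbon fixation, stood at 0.11, 0.24 and 0.01, a median of 0.11 that was -0.10 on quantile normalization and -0.25 on the spiked-control scaling. In the pathway to chlorophyll and haem 3 of 9 genes were at least 2-fold lower, 33.3% beside 10.1% of all genes, and the median was -0.55. HEME2, an early enzyme of the shared branch, read 558.3 in hypoxia against 1606, CHLI2, of magnesium chelatase, 144.3 against 333.1 and PORB, the light-dependent chlorophyll enzyme, 2640 against 5706.

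The chloroplast has its own genome, which encodes core subunits of the photosynthetic complexes. All 69 chloroplast-encoded genes with a named probe set were measured. Of them, 19 were at least 2-fold higher on large polysomes, 27.5%, and 6 were lower, 8.70%, with a median of 0.52. Beside these stand 8.03% higher and 10.1% lower of all genes. In the class of strongest signal 13.9% were higher and 8.95% lower. In total RNA the median of the chloroplast-encoded genes was -0.27, with 11 at least 2-fold higher and 4 lower. On the spiked-control scaling the median on large polysomes was 0.16. These mRNAs are translated by ribosomes of the chloroplast, and how the RNA was primed for labelling is not given in the sources used here.

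By complex, all 5 genes of photosystem I were above 0, 3 of them by at least 2-fold, and the median was 1.09. All 15 genes of photosystem II were above 0, 3 of them by at least 2-fold, and the median was 0.68. The ATP synthase had 3 of 6 higher and a median of 0.85, and the chloroplast RNA polymerase 2 of 4 and 0.93. The cytochrome b6f complex had 1 higher and 2 lower of 6, and a median of -0.18. The NADH dehydrogenase-like complex had none higher and 2 lower of 10, and the chloroplast ribosomal proteins 3 higher and 1 lower of 15, with medians of 0.32 and 0.36 that were -0.04 and 0.00 on the spiked-control scaling.

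The ratios of some chloroplast genes stood far from 0. atpF, an ATP synthase subunit, read 3588 in hypoxia against 774.2 on large polysomes, 4.63-fold, and 1320 against 4113 in total RNA. atpH read 3447 against 773.4, a log2 ratio of 2.16 beside -0.16 in total RNA. psaA, a reaction centre protein of photosystem I, read 1962 against 444.5, 2.14 beside -0.52. At the low end petD, a cytochrome b6f subunit, read 253.1 in hypoxia against 935.3, and 1270 against 161.7 in total RNA. rps16, a ribosomal protein gene, read 147.6 against 453.7, -1.62 beside 0.64, and ccsA, for cytochrome assembly, 1539 against 3649, -1.25 beside 1.16.

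The 2 RNA fractions differed in sign for many genes of this genome. Of the 69 genes, 39 were above 0 on large polysomes and below 0 in total RNA, and 13 were below 0 on large polysomes and above 0 in total RNA. Some of these ratios lay within the probe error, 0.52 for 1 probe set, as for ndhC at 0.32 and -0.03 and rps3 at 0.07 and -0.21. At least 2-fold in opposite directions were 9 of all named genes, and 8 of these were chloroplast-encoded. The share of all measured genes that differed in sign was not computed. Of the 11 chloroplast-encoded genes at least 2-fold higher in total RNA, 10 were below 0 on large polysomes. Neither the difference between the fractions nor the part of array scaling in it was tested.

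**Figure D4:**
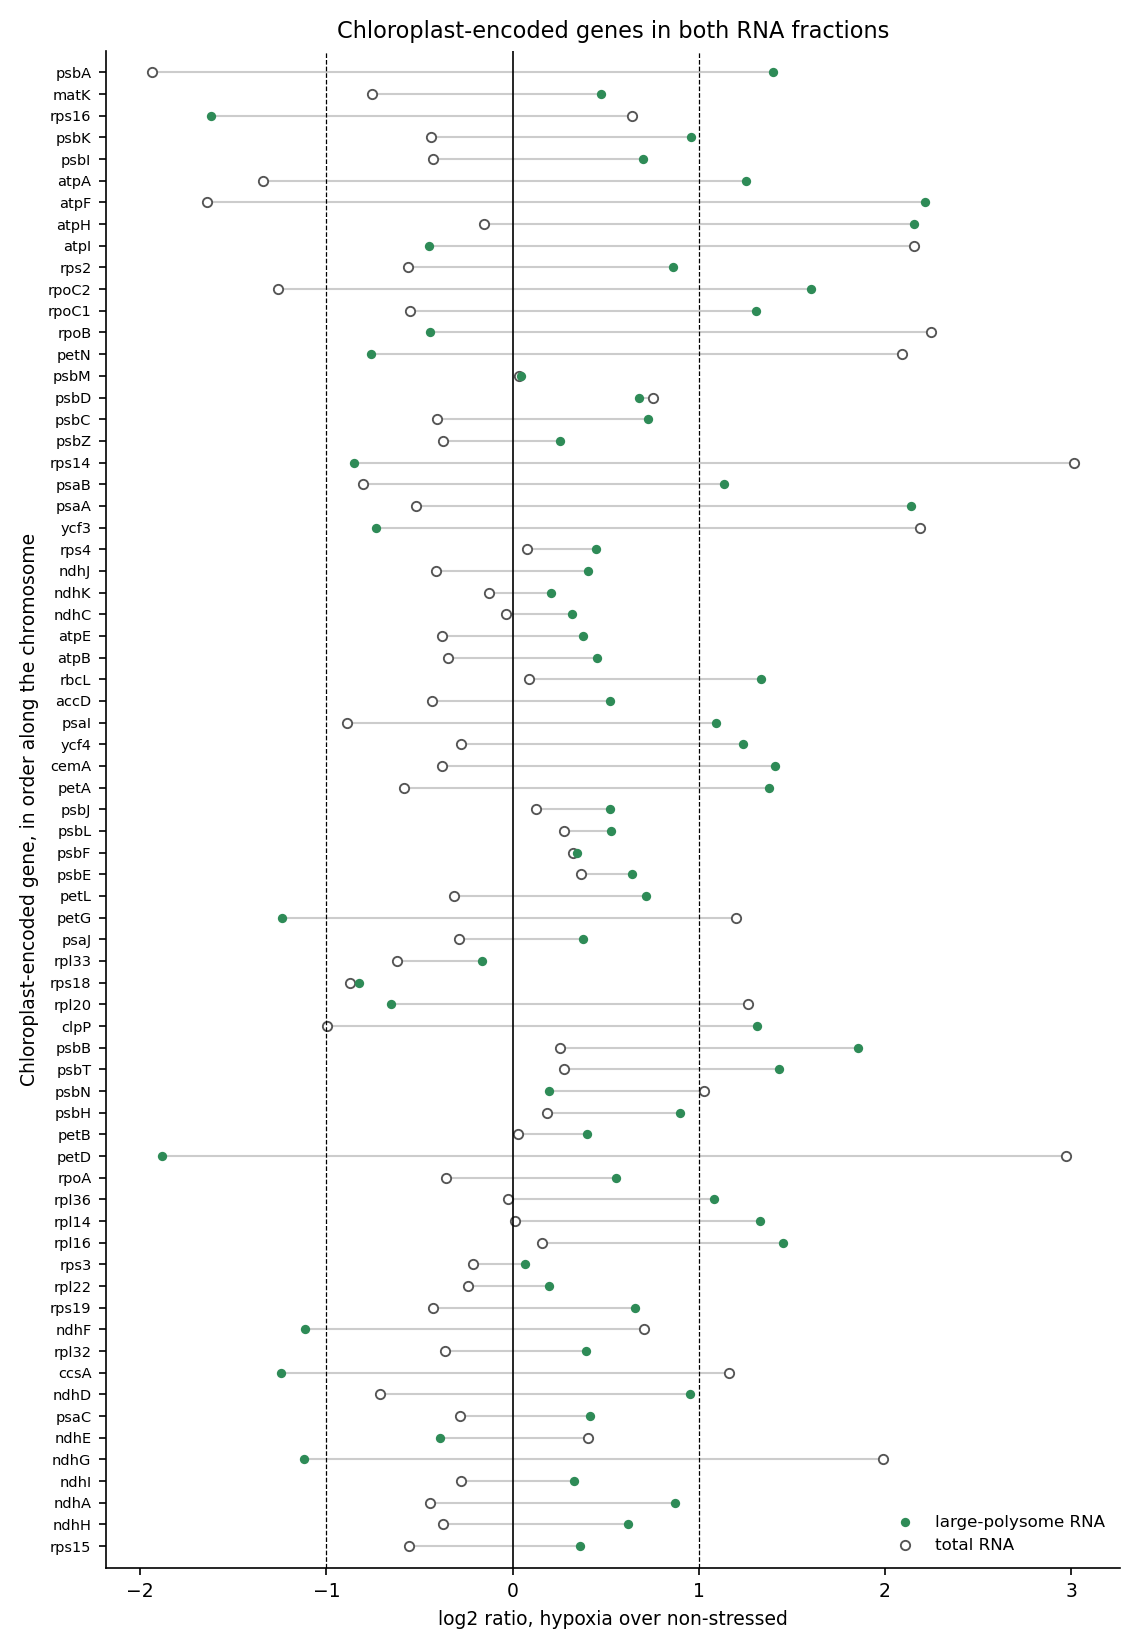
log2 ratio of hypoxia over non-stressed for 69 chloroplast-encoded genes, in their order along the chromosome from top to bottom; filled points are large-polysome RNA, open points total RNA, and dashed lines mark 2-fold. Filled and open points lie on opposite sides of 0 for 52 of the genes, as for petD and rps14, and close together for psbM and psbF.

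Chloroplast genes are transcribed in groups and their RNAs are processed afterwards, and ratios differed within such groups. The groups given here were written down after the values had been seen. In the group of psbB, psbT, psbH, petB and petD, listed in the order of transcription, the ratios on large polysomes were 1.85, 1.43, 0.90, 0.40 and -1.89. The same 5 genes had 0.25, 0.27, 0.19, 0.03 and 2.97 in total RNA. In that group the ratio on large polysomes was lower with each gene along the RNA, and petD stood apart in both fractions.

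In the group of psaA, psaB and rps14 the ratios on large polysomes were 2.14, 1.14 and -0.85, and in total RNA -0.52, -0.80 and at least 3.01. In the group of rpoB, rpoC1 and rpoC2 they were -0.45, 1.31 and 1.60 on large polysomes and at least 2.25, -0.55 and -1.26 in total RNA. On large polysomes rps14 and rpoB read 143.9 and 142.7 in hypoxia against 259.4 and 194.4, so their hypoxia signals were just above the floor. In the group of rps2, atpI, atpH, atpF and atpA, atpI stood at -0.45 on large polysomes beside 0.86, 2.16, 2.21 and 1.25 for the others. atpI read 243.0 in hypoxia against 331.5. The ratios of rpoB and atpI lay within the probe error of 0.52. petG stood at -1.24 and its neighbour petL at 0.71.

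In the group of ndhH, ndhA, ndhI, ndhG, ndhE, psaC and ndhD the ratios on large polysomes ran from -1.12 for ndhG and -0.39 for ndhE to 0.95 for ndhD. In the group of rps19, rpl22, rps3, rpl16, rpl14, rpl36 and rpoA they ran from 0.07 for rps3 to 1.45 for rpl16. In the accD group they ran from 0.52 for accD to 1.41 for cemA.

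The other 3 groups had narrow ranges. psbE, psbF, psbL and psbJ lay between 0.35 and 0.64 on large polysomes, ndhC, ndhK and ndhJ between 0.21 and 0.41, and atpB and atpE at 0.45 and 0.38. Of 64 pairs of adjacent chloroplast genes, 20 had ratios of opposite sign on large polysomes. As 54 chloroplast genes were above 0 and 15 below 0, pairs of opposite sign also arise whatever the order of the genes. The number expected in that way was not computed.

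Among nuclear genes, 2159 pairs of direct neighbours were measured on large polysomes. In 21 pairs both genes were at least 2-fold higher, in 20 both were lower and in 34 they were at least 2-fold in opposite directions. At least 1 gene was 2-fold higher in 352 pairs and 2-fold lower in 401. As 8.03% of all measured genes were higher and 10.1% lower, some such pairs arise whatever the position of the genes. The number expected in that way was not computed. Some of these pairs, named after their values were seen, follow. AT3G10020, AT3G10030 and AT3G10040 lie in a row at 3.25, 1.17 and at least 3.69, and the outer 2 are on the core hypoxia list. AT1G33050 and AT1G33055 stood at 2.49 and 3.74. PDC2 at 3.87 lies beside AT5G54970 at -1.22, and AT4G10270 at 3.99 beside AT4G10280 at -1.74.

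Genes past 2-fold on large polysomes mostly had a ratio of the same sign in total RNA. Of the 586 genes at least 2-fold higher on large polysomes, 584 were measured in total RNA, where 276 were at least 2-fold higher and 275 higher by less than 2-fold, while 33 were at 0 or lower. Of the 739 lower genes, 731 were measured in total RNA, where 397 were at least 2-fold lower, 314 lower by less than 2-fold and 20 at 0 or higher. The median of the 586 was 1.38 on large polysomes and 0.96 in total RNA, and that of the 739 was -1.36 and -1.06. As these genes were chosen for their ratio on large polysomes, the smaller medians in total RNA are a description only. The 95th percentile over all measured genes was 1.27 on large polysomes and 1.03 in total RNA, and the 5th percentile -1.36 and -1.25.

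**Figure D5:**
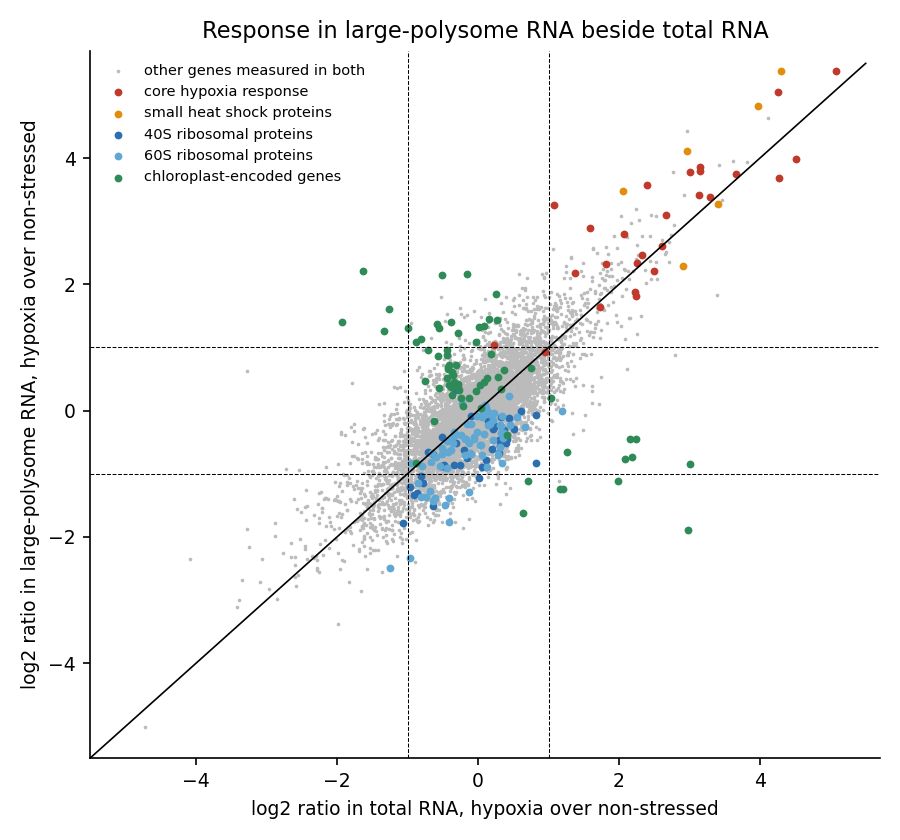
log2 ratio of hypoxia over non-stressed in large-polysome RNA (vertical) against total RNA (horizontal) for genes measured in both, with 5 lists in colour; the solid line marks equal ratios and dashed lines 2-fold. Core hypoxia genes lie in the upper right, ribosomal proteins below the solid line, and chloroplast-encoded genes run from the upper left to the lower right.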

How the data were processed

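The deposited values were the authors' probe set intensities on a linear scale, 1 per probe set and array; the summarising software is not given in the sources used here. The mean intensity between the 2nd and 98th percentiles was near 500 on each array, so the arrays as deposited share 1 scale. With Python 3.11.15, numpy 2.4.6 and pandas 2.3.3, intensities under 140 were set to 140 and a log2 ratio and fold of hypoxia over non-stressed were taken from the deposited values; no normalization was added. Of 22746 non-control probe sets, 13513 had 1 gene in the platform annotation, 503 several and 8730 were not listed; 13436 matched RefSeq (TAIR10.1), used for names and neighbours only. Where several probe sets read a gene, that with the highest mean was kept, which left 13350 genes; PDC1, ADH1 and SUS1 were not analysed here.

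The members and the 54 gene lists were chosen with earlier results of these data known, and the lists were completed after the annotation was seen. After the values were seen, 6 genes matched by symbol alone were taken out of lists they do not belong to, the peptide deformylases PDF1A and PDF1B, ATCES1, FRA3, ATPC1 and ATPC2. Named were the 12 highest and 12 lowest ratios, 6 bounds each way, the 3 highest and 3 lowest of each list, core hypoxia genes and members of groups of 5 or fewer; the 15 highest and 15 lowest nuclear genes with a symbol, and genes outside these rules, were chosen after their values were seen. Levels of different probe sets were not compared. Of the measured genes, 35 were read by probe sets shared between transcripts and may be uncertain. The ratio step was run on simulated data with changes larger than 2-fold in probe sets of strong non-stressed signal. It did not try changes near 2-fold or probe sets of weak signal. No sequences were used here.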

Additional observations from a re-analysis of the deposited data

Results flagged for a closer look

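For 9 genes hypoxia moved the signal at least 2-fold in opposite directions in large-polysome and total RNA, and 8 of them are encoded by the chloroplast. With 1 array a group the difference between the fractions was not tested. On the log2 scale, higher on large polysomes and lower in total RNA were atpF, at 2.21 beside -1.64, rpoC2, a subunit of the chloroplast RNA polymerase, at 1.60 beside -1.26, psbA, the D1 protein of photosystem II, at 1.40 beside -1.94, and atpA, an ATP synthase subunit, at 1.25 beside -1.34. psbA read 1304 in hypoxia against 494.8 on large polysomes, and 1382 against 5289 in total RNA.

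Lower on large polysomes and higher in total RNA were petD, at -1.89 beside 2.97, ccsA, at -1.25 beside 1.16, petG, of cytochrome b6f, at -1.24 beside 1.20, ndhG, of the NADH dehydrogenase-like complex, at -1.12 beside 1.99, and the nuclear gene AT5G55450, at -1.12 beside 1.14. AT5G55450 read 459.0 in hypoxia against 995.6 on large polysomes, and 379.9 against 171.8 in total RNA. The label of non-stressed total RNA gives no treatment time, so a difference in time and the condition cannot be told apart in the total RNA values.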

How the results depend on the processing

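No paired analysis was possible because each group has 1 array and the labels carry no replicate number, and for the same reason no array could be left out. The count of genes at least 2-fold higher, 586, became 315 on the spiked-control scaling, 208 at 3-fold and 1116 over all probe sets; the count lower, 739, became 1457, 207 and 1552 in the same settings and 410 with a floor of 300. The remaining 11 of 18 recomputed counts stayed within 1.5 times. Of 364 recomputed list medians, 360 moved by less than the probe error of 0.52, and the medians past 2-fold kept their sign in each setting run. The exceptions were small heat shock proteins, from 3.80 to 3.15 with a floor of 300 and 3.27 with both signals above the floor, RALF-like peptides, from -0.99 to -0.44 with a floor of 300, and tetraspanins, from 0.48 to -0.39 with that floor, a change of direction. Fewer of all genes were measured under those settings. The 0.52 is the error of 1 probe set, not of a list median. The spiked-control scaling moves a ratio by at most 0.36, so a move under 0.52 there shows little. Medians near 0 also changed sign within 0.52. That of chaperones went from 0.07 to -0.29 on the spiked-control scaling, and that of UDP-glycosyltransferases from -0.17 to 0.14 with a floor of 300. With the floor of 300 each of the 6 small heat shock protein genes was still measured, and non-stressed intensities under 300 were set to 300. Of 403 recomputed ratios of 60 genes, 28 moved by more than 0.52, all with the floor of 300, and none changed sign. Signal near the floor limits the fold that can be read, and probe error limits ratios near 2-fold.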

Other observations

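Some families not described above held members in both directions on large polysomes. Of 8 measured tetraspanins, membrane proteins that organise receptors, none was at least 2-fold higher and TET10 was lower, at 173.0 in hypoxia against 455.8, while TET8 stood at 0.86 and TET2 at 0.74. Of 5 measured defensin-like peptides, PDF1.4 read 2444 in hypoxia against 687.0, 3.56-fold higher, LCR67 was at least 3.15-fold higher at 441.2 against 118.9, and PDF2.5 was lower. PDF1.4 stood at 1.83 on large polysomes beside at least 3.39 in total RNA on the log2 scale.

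Among transcription factors with a symbol, WRKY6 read 827.0 in hypoxia against 304.7, 2.71-fold, and WRKY22 594.5 against 318.1, 1.87-fold, of 4 WRKY genes measured. Of 10 basic leucine zipper genes, BZIP60 was higher, as given, and bZIP44 was lower at 233.2 against 652.8, a log2 ratio of -1.49. None of 5 measured SWEET sugar transporters passed 2-fold, with SWEET2 at 0.85 and SWEET1 at -0.61. Of 7 measured calmodulin-like genes CML38 alone was at least 2-fold higher, and the median of 0.02 was -0.34 on the spiked-control scaling.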
